A study of Mus musculus with 16 samples.

Results

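The genes described here are 9 effector cytokines of helper T cell subsets: Ifng, Il4, Il13, Il9, Il17a, Il17f, Il24, Il10 and Il21. They were chosen by name, and each was read from its only probe with a single gene symbol. They are 9 of the 19938 genes that have such a probe on the arrays. Total RNA came from naive CD4+ T cells (CD4+CD62LhiCD25-) of B6 mice, sorted out of spleen and lymph nodes and stimulated for 24 h on latex beads. Knockout cells lacked Dec1, the transcription factor encoded by Bhlhe40, and wild-type cells carried it. Beads bore antibodies to CD3 and CD28 together, or to CD3 alone. The groups are knockout under anti-CD3 plus anti-CD28 (KO_CD3CD28), knockout under anti-CD3 (KO_CD3), wild type under anti-CD3 plus anti-CD28 (WT_CD3CD28) and wild type under anti-CD3 (WT_CD3), with 4 arrays each. The sources used here state neither the age of the mice nor whether replicates are separate animals. The p-values thus cover the spread between these samples only, and how much of it is technical is unknown.

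When a naive CD4 T cell is activated through its antigen receptor and CD28, it can differentiate into helper subsets that are told apart by the cytokines they secrete. Interferon gamma, the product of Ifng, marks Th1 cells and activates macrophages. Il4 and Il13 are neighbouring genes of Th2 cells that drive antibody class switching and mucus and airway responses, and Il24 is a further Th2 product. Il9 marks Th9 cells, and Il17a and Il17f, also neighbours, mark Th17 cells and recruit neutrophils. Il10 restrains inflammation and is made by several subsets, and Il21 from follicular helper and Th17 cells helps B cells. Most of these loci are closed in naive cells and open under polarizing cytokines. Dec1 is known in mouse helper T cells as a repressor of Il10.

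The promoters of Ifng and Il13 are shown because those genes are the effector cytokines whose probes passed the test in a comparison below. Each window, from RefSeq on GRCm38.p6, runs from 250 bases before to 50 bases after the annotated start. It is written 5′ to 3′ on the gene's strand, and capitals mark GGAAA, the core of sites for NFAT, read on either strand (TTTCC).
Ifng (chr10:118440796-118441095, + strand): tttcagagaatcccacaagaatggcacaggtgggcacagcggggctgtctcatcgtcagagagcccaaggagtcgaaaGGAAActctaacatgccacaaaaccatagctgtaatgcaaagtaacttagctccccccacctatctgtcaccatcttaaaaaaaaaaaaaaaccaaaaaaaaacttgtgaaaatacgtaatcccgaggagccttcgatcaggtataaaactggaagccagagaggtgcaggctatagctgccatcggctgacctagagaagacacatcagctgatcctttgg
Il13 (chr11:53634653-53634952, - strand): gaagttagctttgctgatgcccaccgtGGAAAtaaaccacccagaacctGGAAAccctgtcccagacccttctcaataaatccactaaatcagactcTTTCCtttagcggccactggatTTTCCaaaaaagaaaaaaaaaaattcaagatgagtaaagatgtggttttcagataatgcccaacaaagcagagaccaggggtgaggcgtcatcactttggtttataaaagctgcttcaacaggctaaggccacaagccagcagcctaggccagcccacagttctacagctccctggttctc
The Ifng window held 1 match and the Il13 window 4. RefSeq windows were matched for 7 of the 9 cytokines, 8 windows in all since Il4 has 2 starts. Il24 and Il10 were not matched. GGAAA was found in 7 of the 8 windows, against 61.3% of the 32851 windows of all genes. TGANTCA, a form of the AP-1 site, was in 2 of the 8, those of Il9 and Il17a, against 7.81% of all windows. CACGTG, an E-box that Dec1 can bind, was in 0 of the 8, against 7.15% of all. Both strands were read, and such matches describe letters in these windows and show no binding.

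The cells were checked before the cytokines. All 10 CD4 T cell identity genes with a probe were above background on all 16 arrays, Cd4 itself at a log2 level of 10.95 ± 0.08 in KO_CD3CD28, 10.97 ± 0.23 in KO_CD3, 11.06 ± 0.23 in WT_CD3CD28 and 11.34 ± 0.31 in WT_CD3 (SD, n = 4). Under both antibodies 5 of the 10 were lower in knockout cells and 6 in wild-type cells, and 0 were higher. Over all genes, 17.6% were lower in knockout cells and 13% in wild-type cells. With the replicate number as a block 6 and 9 were lower, where 45.3% and 35.3% of all genes passed in either direction. Cd3d, a chain of the antigen receptor complex, was among the lower genes, with differences of -0.85 and -1.06 (limma adjusted p = 0.00165 and 0.000338). So was the signalling adaptor Lat, with -0.60 and -0.78 (limma adjusted p = 0.00137 and 0.000185). The Lat call in knockout cells was lost in replicates 3 and 4 alone (limma adjusted p = 0.0961). Bhlhe40 was at 5.88 ± 0.14 in KO_CD3CD28, against 9.51 ± 0.71 in WT_CD3CD28, and at 5.53 ± 0.32 in KO_CD3, against 7.56 ± 0.42 in WT_CD3. Knockout levels were below background on 8 of 8 arrays. The differences are therefore lower bounds, of at least 8.27-fold under both antibodies (limma adjusted p = 3.76e-06) and at least 1.91-fold under anti-CD3 (adjusted p = 0.00548, but 0.0969 in replicates 3 and 4 alone). Replicates 1 and 2 of all groups parted from replicates 3 and 4 in their deviations from the group means, and values within each set are given beside the calls of the effector cytokines. Xist, the RNA that female cells make from their silenced X chromosome, was high on both arrays of KO replicates 2 and 4 and of WT replicate 1 and low on the others. Each genotype thus held cells of both sexes, in unlike proportions. Within a genotype, the Xist state of a replicate number was the same under both stimuli. Between genotypes it differed for numbers 1, 2 and 4, which the block treats as alike. In bulk RNA, fewer cells that make a cytokine and less RNA per cell cannot be told apart.

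Array background was read from 1225 probes of olfactory, vomeronasal and trace amine receptors, genes of sensory neurons. A cytokine probe was taken as above background on an array where it exceeded the 95th percentile of those probes, which lay between log2 values of 6.22 and 6.71. Most of the effector cytokines were near or below this level. Il13 exceeded it on 16 of 16 arrays, Ifng on 15 and Il17f on 8. Il9 and Il17a did so on 3 arrays each, and Il4, Il24, Il10 and Il21 on 0. With the 99th percentile, 7.01 to 7.48, Il13 was above on 16 arrays, Ifng on 6 and the other 7 genes on 0. The probes of Il10 and Il21 were under their array's 25th percentile on all 16 arrays and so were not among the genes tested.

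**Figure D1:**
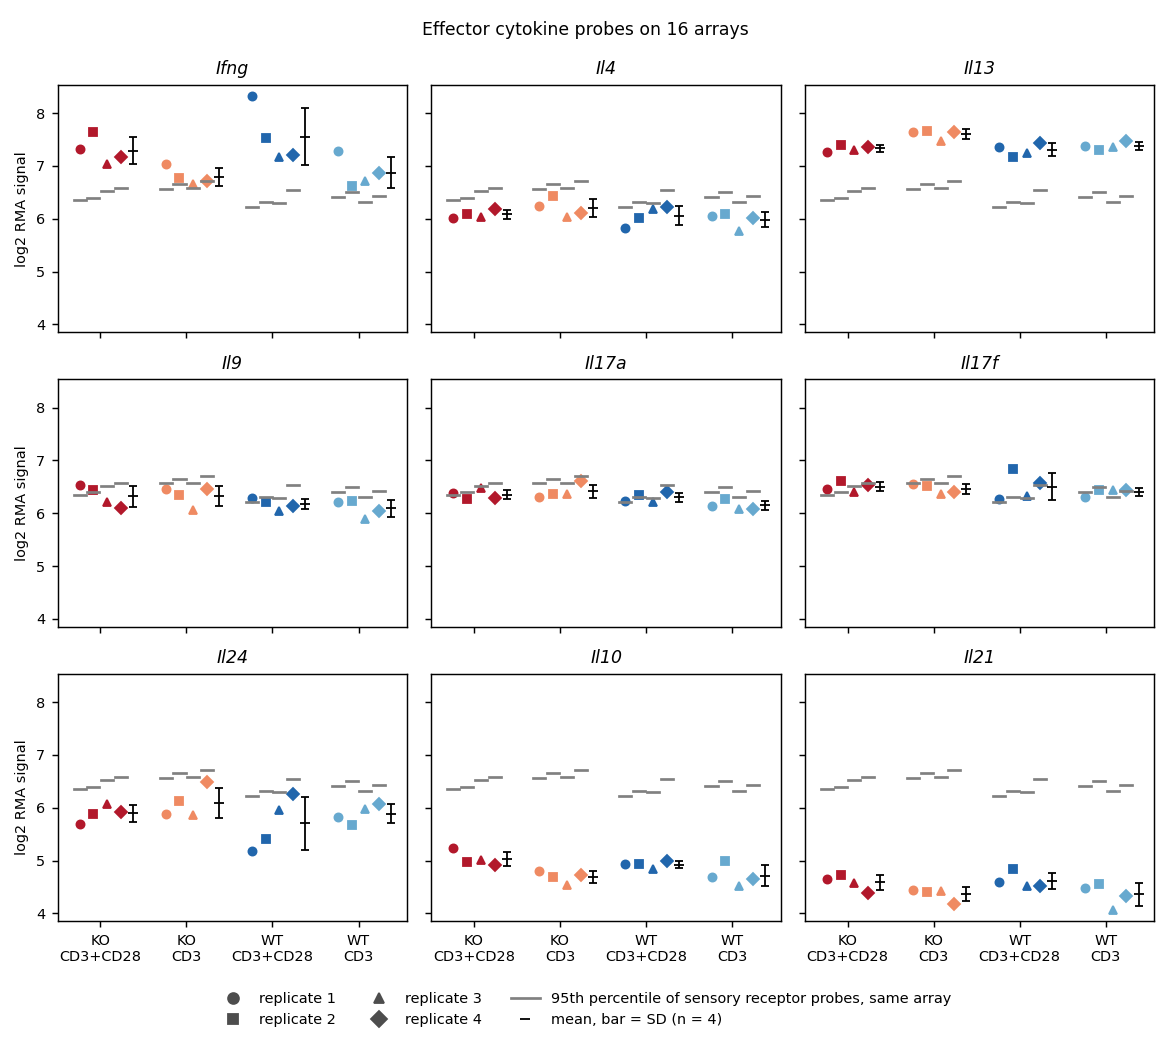
Log2 RMA signal (y axis) of the 9 effector cytokine probes in the 4 groups (x axis). Symbols are single arrays by replicate number, black marks are the mean with SD (n = 4), and grey dashes are the 95th percentile of sensory receptor probes on the same array. Il13 lies above its dash on 16 arrays and Ifng on 15, while Il4, Il24, Il10 and Il21 lie below it on all 16.

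Ifng, the Th1 cytokine, had the widest spread between stimuli. Its log2 levels in replicates 1 to 4 were 7.31, 7.63, 7.03 and 7.18 in KO_CD3CD28, against 7.04, 6.78, 6.65 and 6.71 in KO_CD3. In wild-type cells they were 8.32, 7.53, 7.16 and 7.20 in WT_CD3CD28, against 7.28, 6.62, 6.71 and 6.86 in WT_CD3. In each genotype, every replicate number was higher under both antibodies, and in each the 2 stimuli overlapped as groups. The group means, from high to low, were 7.55 ± 0.54 in WT_CD3CD28, 7.29 ± 0.26 in KO_CD3CD28, 6.87 ± 0.29 in WT_CD3 and 6.79 ± 0.17 in KO_CD3 (SD, n = 4). Neighbours in that order overlapped. Above the sensory 95th percentile of the same arrays, Ifng stood by 0.83 ± 0.33 in KO_CD3CD28 and 0.17 ± 0.21 in KO_CD3, and by 1.21 ± 0.64 in WT_CD3CD28 and 0.46 ± 0.31 in WT_CD3.

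Among the Th2 cytokines, Il13 kept to a narrow band. Its levels were 7.26, 7.40, 7.30 and 7.36 in KO_CD3CD28, against 7.64, 7.67, 7.47 and 7.64 in KO_CD3. In wild-type cells they were 7.36, 7.17, 7.25 and 7.44 in WT_CD3CD28, against 7.37, 7.29, 7.37 and 7.48 in WT_CD3. The KO_CD3 arrays were the high ones, all above the KO_CD3CD28 arrays, while the wild-type groups overlapped. Relative to the sensory 95th percentile of the same arrays, the means came closer together, at 0.87 ± 0.11 in KO_CD3CD28, 0.98 ± 0.08 in KO_CD3, 0.96 ± 0.13 in WT_CD3CD28 and 0.97 ± 0.12 in WT_CD3. Il4 had 6.08 ± 0.08 in KO_CD3CD28, 6.20 ± 0.17 in KO_CD3, 6.06 ± 0.18 in WT_CD3CD28 and 5.98 ± 0.14 in WT_CD3, below background on every array. Il24 was below background too, from 5.18 to 6.49, with the lowest arrays being WT_CD3CD28 replicates 1 and 2, at 5.18 and 5.41. The Th9 cytokine Il9 had 6.32 ± 0.20 in KO_CD3CD28, 6.33 ± 0.19 in KO_CD3, 6.18 ± 0.10 in WT_CD3CD28 and 6.09 ± 0.16 in WT_CD3, and its groups overlapped.

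The Th17 cytokines lay around the background. Il17a was at 6.32, 6.37, 6.37 and 6.60 in KO_CD3, against 6.14, 6.28, 6.08 and 6.09 in WT_CD3. These groups did not overlap, yet on all 8 of those arrays the probe was below the sensory 95th percentile. Under both antibodies Il17a was at 6.39, 6.27, 6.47 and 6.29 in KO_CD3CD28, against 6.23, 6.34, 6.21 and 6.41 in WT_CD3CD28, where the groups overlapped. Il17f ranged from 6.27 to 6.83, and its highest array was WT_CD3CD28 replicate 2. It was above background on 2 arrays of KO_CD3CD28, 0 of KO_CD3, 4 of WT_CD3CD28 and 2 of WT_CD3.

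Il10, the target that Dec1 is known to repress, was low in every group. Its levels were 5.23, 4.98, 5.01 and 4.92 in KO_CD3CD28, against 4.93, 4.93, 4.84 and 4.999 in WT_CD3CD28, and these overlapped. Under anti-CD3 they were 4.80, 4.68, 4.55 and 4.73 in KO_CD3, against 4.70, 4.99, 4.52 and 4.66 in WT_CD3, which overlapped as well. Il21 ranged from 4.06 to 4.83 over all arrays, close to the sensory receptor medians of 4.39 to 4.76.

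The comparison of stimuli in knockout cells asked what CD28 adds to anti-CD3 without Dec1. Il13 was lower in KO_CD3CD28 than in KO_CD3 by a log2 difference of -0.27 (SE 0.08, limma adjusted p = 0.0109), with all 4 replicate numbers lower. It was the 1 effector cytokine of 7 tested that passed, and 0 were higher. Over all 16427 genes, 38% passed, 17.6% as lower and 20.4% as higher, so 1 of 7 is no larger a share than the background. Its groups did not overlap, also 1 of 7, against 34.9% of all genes. Of the genes that passed, 53.8% were higher, but 75% with each array centred on its median. Ifng had a difference of 0.49 (SE 0.21, 95% interval 0.05 to 0.94), which did not pass (limma adjusted p = 0.0756). With the replicate number as a block it did, at an adjusted p of 0.0148, where 45.3% of all genes passed. The differences of Il4 (-0.12), Il9 (-0.01), Il17a (-0.06), Il17f (0.05) and Il24 (-0.19) did not pass.

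The level of dim probes differed in the same direction as Il13. Sensory receptor probes had a median difference of -0.12 in the same comparison, with their 5th and 95th percentiles at -0.35 and 0.10. The median of all genes was -0.06. With each array centred on its sensory receptor median, the Il13 difference was -0.15 (limma adjusted p = 0.178), and with each array centred on its own median it was -0.14 (0.182). In replicates 1 and 2 alone it was -0.32 (limma adjusted p = 0.025) and in replicates 3 and 4 alone -0.22 (0.281).

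In wild-type cells, Ifng was the 1 of 7 effector cytokines that passed. It was higher in WT_CD3CD28 than in WT_CD3 by 0.69 on the log2 scale (SE 0.21, 95% interval 0.24 to 1.13, limma adjusted p = 0.0205), a 1.61-fold difference. The pairs of like replicate numbers differed by 1.04, 0.91, 0.45 and 0.34. Over all genes, 29% passed, 16% as higher and 13% as lower, and the higher ones were 55.1% of those called, or 69.3% with each array centred on its median. The groups of 0 of 7 cytokines were apart, against 30.4% of all genes. The call was lost without WT_CD3CD28 replicate 1, the array with the highest Ifng (difference 0.43, limma adjusted p = 0.0702), and likewise without WT_CD3 replicate 2 (0.60, 0.068) or WT_CD3 replicate 3 (0.63, 0.0555). Replicates 1 and 2 alone gave 0.98 (limma adjusted p = 0.0116) and replicates 3 and 4 alone 0.40 (0.0474). Sensory receptor probes had a median difference of -0.03 here, and centring on them gave Ifng 0.72 (limma adjusted p = 0.0377). The other 6 did not pass: Il17a had 0.15 (limma adjusted p = 0.202), and Il4, Il9, Il17f, Il13 and Il24 lay between -0.18 and 0.09.

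Il10 and Il21 were fitted only with the filter on dim probes left out, when 31.4% of genes passed in knockout cells and 23.3% in wild-type cells. Il10 then had a CD28 difference of 0.35 in knockout cells (SE 0.10, limma adjusted p = 0.0129) and 0.21 in wild-type cells (0.161). Those of Il21 were 0.22 (limma adjusted p = 0.152) in knockout cells and 0.25 in wild-type cells (0.136, and 0.044 with the replicate number as a block). As all 4 groups of both genes were below background, no fold change is given.

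**Figure D2:**
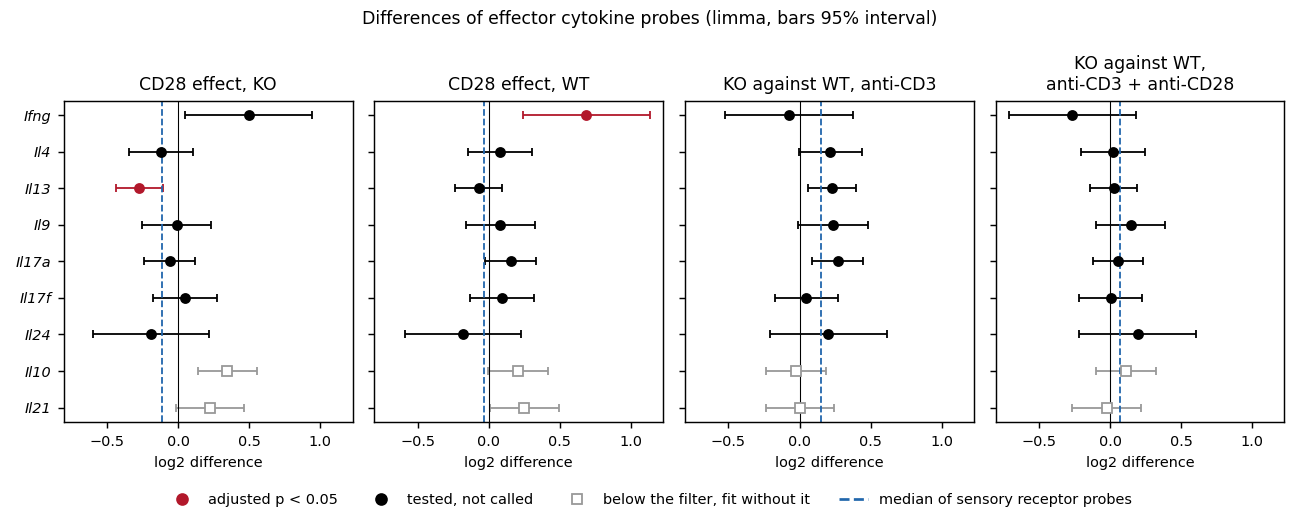
Log2 differences (x axis) of the 9 effector cytokine probes (y axis), with 95% intervals, in a panel for each comparison. Red points passed at an adjusted p of 0.05, black points were tested and did not pass, grey squares are the genes under the filter, fitted without it, and the dashed line is the median of sensory receptor probes. The red points are Il13 for CD28 in knockout and Ifng for CD28 in wild type.

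The genotypes were then compared under each stimulus, which asked whether loss of Dec1 changes the cytokines. Under anti-CD3, 0 of 7 passed, against 1.03% of all genes. At an unadjusted p under 0.05, 2 of 7 passed, against 24.3% of all genes. Il17a had a log2 difference of 0.27 between KO_CD3 and WT_CD3 (SE 0.08, limma adjusted p = 0.0984) and was the 1 of 7 whose groups did not overlap, against 14.7% of all genes. Il13 had 0.23 (SE 0.08, limma adjusted p = 0.116), Il9 0.24 (0.216), Il4 0.22 (0.216) and Il24 0.20 (0.51). Ifng had -0.07 (SE 0.21, 95% interval -0.52 to 0.37). The positive values moved with the dim probes of these arrays: sensory receptor probes had a median of 0.15, from -0.05 to 0.35 at their 5th and 95th percentiles. Centred on the sensory receptor median, Il17a had 0.12 (limma adjusted p = 0.311) and Il13 0.08 (0.568).

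Under anti-CD3 plus anti-CD28, 0 of 7 passed, against 0.00609% of all genes, which is Bhlhe40 alone. None had an unadjusted p under 0.05 (0 of 7, against 3.32% of all genes), and the groups of 0 of 7 were apart, against 2.75% of all genes. Ifng was at 7.29 ± 0.26 in KO_CD3CD28 and 7.55 ± 0.54 in WT_CD3CD28, a difference of -0.27 whose 95% interval ran from -0.71 to 0.18 (limma adjusted p = 0.999). Il17f differed by 0.00 and Il13 by 0.02, with intervals of -0.22 to 0.23 and -0.14 to 0.19. Il10, in the fit without the filter, had 0.11 (95% interval -0.10 to 0.32). The CD28 difference itself was compared between genotypes by an interaction term. All 7 estimates were negative, from -0.21 for Il17a and -0.20 for Il13 to -0.01 for Il24, and 0 passed, as did 0% of all genes. Dim probes moved the same way: sensory receptor probes had a median of -0.08. Their 5th and 95th percentiles were -0.35 and 0.16, and all 7 estimates lay between them. That of Ifng was -0.19 (SE 0.30, limma adjusted p = 0.948), so its CD28 difference was not shown to differ between genotypes.

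Cytokines outside the 9 were followed for the same response to CD28. Of 24 other T cell cytokines, 20 were tested. In knockout cells 11 were higher and 3 lower under both antibodies, and in wild-type cells 9 and 3. For this list and those below, the shares over all genes were 20.4% higher and 17.6% lower in knockout cells, and 16% and 13% in wild-type cells. The list's median difference was 0.78 in knockout and 0.69 in wild-type cells, beside all-gene medians of -0.06 and -0.03, while the 7 effector cytokines had medians of -0.06 and 0.08. Il2, the T cell growth factor, was at 10.68 ± 0.90 in KO_CD3CD28 and 6.75 ± 0.30 in KO_CD3, and at 11.17 ± 0.71 in WT_CD3CD28 and 7.15 ± 0.27 in WT_CD3 (SD, n = 4). Lif, a cytokine of the Il6 family, was below background in KO_CD3 and at least 4.78-fold higher in KO_CD3CD28 (limma adjusted p = 2.24e-08). Il3, which stimulates blood cell progenitors, was below background under anti-CD3 and at least 1.29-fold higher in KO_CD3CD28 (limma adjusted p = 0.0209) and at least 3.62-fold higher in WT_CD3CD28 (0.00227). The fitted Il3 difference was 4.03 in replicates 1 and 2 alone and 1.09 in replicates 3 and 4 alone in knockout cells, and 5.66 and 1.77 in wild-type cells. The knockout call was lost without KO_CD3CD28 replicate 1 or 2 and with a trended, robust variance. Ltb, a lymphotoxin chain, fell by 1.10 in knockout and 1.32 in wild-type cells, and the chemoattractant Il16 fell by 0.64 and 0.63. In the genotype comparisons 0 of these 20 passed. With the replicate number as a block, when 11.9% of all genes passed under anti-CD3, 1 did: Tnf, an inflammatory cytokine, had -0.84 between KO_CD3 and WT_CD3 (limma adjusted p = 0.0246, and 0.0789 without the block). This gene and the others below called between genotypes with the block were named after their values were seen.

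Receptor chains through which the 9 cytokines act were mostly well above background, with 10 of 14 above it on all arrays. Of 12 tested, 5 were lower under both antibodies in knockout cells and 2 in wild-type cells, and 0 were higher in either. Centring each array on its median gave 1 higher and 2 lower in knockout cells. Ifngr1, the ligand-binding chain of the interferon gamma receptor, was at 9.23 ± 0.38 in KO_CD3CD28 and 10.65 ± 0.19 in KO_CD3, a difference of -1.42 (limma adjusted p = 4.41e-06), and at 9.17 ± 0.29 in WT_CD3CD28 and 10.44 ± 0.14 in WT_CD3, a difference of -1.27 (2.61e-05). Its groups were apart in both genotypes. Il17ra, the shared receptor chain of Il17a and Il17f, fell by 1.46 in knockout (limma adjusted p = 5.91e-07) and by 1.41 in wild-type cells (1.75e-06). Both calls stood under all 31 alternatives tried. Under anti-CD3 the block called 11.9% of all genes and 2 of the 12 between genotypes. Those were Il9r at 0.27 and Il17rc at 0.25, both higher in KO_CD3. Without the block neither passed (limma adjusted p = 0.1495 and 0.0987). Sensory receptor probes had a median of 0.15 in that comparison, from -0.05 to 0.35 at their 5th and 95th percentiles. Il4ra, the receptor chain of Il4 and Il13, had 0.41 in knockout (limma adjusted p = 0.0524) and 0.29 in wild-type cells (0.212).

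Transcription factors that direct the subsets were called in both directions. Of 27 tested, 6 were higher and 6 lower in knockout cells, and 7 and 6 in wild-type cells. Over all genes, 20.4% were higher and 17.6% lower in knockout cells, so the knockout counts were near the background share. In wild-type cells the shares over all genes were 16% and 13%. With each array centred on its median these counts were 7 and 3 in knockout and 7 and 4 in wild-type cells, and centred on the sensory receptor median 6 and 3, and 7 and 4. Prdm1, which is among the lower ones in knockout cells, was below background in both of its groups. Bhlhe40 itself had the largest called rise of the list in wild-type cells, 1.95 (limma adjusted p = 4.06e-05), and was below background in knockout cells. Eomes, which drives interferon gamma in Th1 and CD8 cells, rose by 1.06 in knockout and 0.99 in wild-type cells, and Batf, needed for Th17 cells, by 1.02 and 0.73. In replicates 1 and 2 alone and in replicates 3 and 4 alone, Eomes had 0.48 and 1.496 in wild-type cells and passed in each. Batf had 1.48 and 0.56 in knockout cells and 1.18 and 0.27 in wild-type cells, and in replicates 3 and 4 alone both its calls were lost (limma adjusted p = 0.0569 and 0.4). The wild-type call of Batf was lost as well without WT_CD3CD28 replicate 1 or 2 or WT_CD3 replicate 1. Bcl6, the follicular helper factor, fell by 1.83 and 1.88, and Ikzf3, a repressor of Il2, by 1.38 and 1.46. Tbx21, the Th1 factor, had 0.21 in knockout (limma adjusted p = 0.208) and 0.53 in wild-type cells (0.0037), where it had 0.76 in replicates 1 and 2 alone and 0.31, without a call, in replicates 3 and 4 alone (0.221). Gata3, the Th2 factor, had 0.11 and 0.23, and neither passed (limma adjusted p = 0.504 and 0.162). Between genotypes, 1 factor of the 27 passed under either stimulus, Bhlhe40. With the block it was again the 1 called under both antibodies (1 of 27, against 0.00609% of all genes). Under anti-CD3 the block called 11.9% of all genes and 4 of the 27, which were lower in KO_CD3 than in WT_CD3. Those were Bhlhe40, Eomes (-0.74, limma adjusted p = 0.0258), Irf4 (-0.58, 0.0137) and Nfatc1 (-0.50, 0.0308). Irf4 and Nfatc1 act downstream of the antigen receptor.

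Genes that interferon gamma induces were followed as a further readout of Ifng. Of 16 tested, 3 were higher in knockout cells and 2 in wild-type cells under both antibodies, and 0 were lower. Over all genes, 20.4% were higher in knockout cells and 16% in wild-type cells, so these counts are no larger a share than the background. Irf8, a factor of the interferon response, was at 8.90 ± 0.52 in KO_CD3CD28 and 7.42 ± 0.08 in KO_CD3, and at 9.26 ± 0.72 in WT_CD3CD28 and 7.40 ± 0.21 in WT_CD3. Gbp5, a guanylate-binding protein of host defence, rose by 1.53 in knockout cells (limma adjusted p = 0.00282) and had 0.43 in wild-type cells (0.418). That contrast between genotypes did not pass as an interaction (limma adjusted p = 0.905). The GTPase Iigp1 passed in both genotypes but lost its call in 6 of 31 alternatives in each. In wild-type cells it had 0.71 in replicates 1 and 2 alone and 1.61 in replicates 3 and 4 alone. The list's median was 0.12 in knockout and 0.09 in wild-type cells, and 13 of 16 and 14 of 16 did not pass. With the replicate block 4 were higher and 1 lower in knockout cells, where 45.3% of all genes passed. In wild-type cells 3 were higher and 2 lower with it, where 35.3% of all genes passed. Between genotypes under anti-CD3 the block called 11.9% of all genes and 3 of these 16. The 3 were lower in KO_CD3: Gbp5 (-1.30, limma adjusted p = 0.0286), Gbp3 (-0.61, 0.0417) and Cd274 (-0.33, 0.0254), and without the block 0 passed.

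Genes listed as targets of STAT3 and STAT6, the signal carriers of Il21, Il10 and Il4, gave 6 higher and 0 lower of 13 in knockout cells and 4 and 1 in wild-type cells. Cish, a feedback inhibitor of cytokine signals, rose by 2.25 and 1.60, and the chemokine receptor Ccr4, found on Th2 cells, by 1.86 and 1.12. Cish in wild-type cells had 0.73 in replicates 1 and 2 alone and 2.48 in replicates 3 and 4 alone, and passed in each. In replicates 3 and 4 alone the Ccr4 call in wild-type cells was lost (limma adjusted p = 0.0873). Between genotypes under anti-CD3, the block called 11.9% of all genes and 1 of 13. That was Ccr4, at -0.72 (limma adjusted p = 0.0137, and 0.086 without the block). Il24 is a member of that list as well and did not pass in either genotype. Il4, Il10 and Il21 were below background on all 16 arrays, while Il2 rose by 3.93 in knockout and 4.02 in wild-type cells. Which cytokine's signal the called genes followed was not tested.

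**Figure D3:**
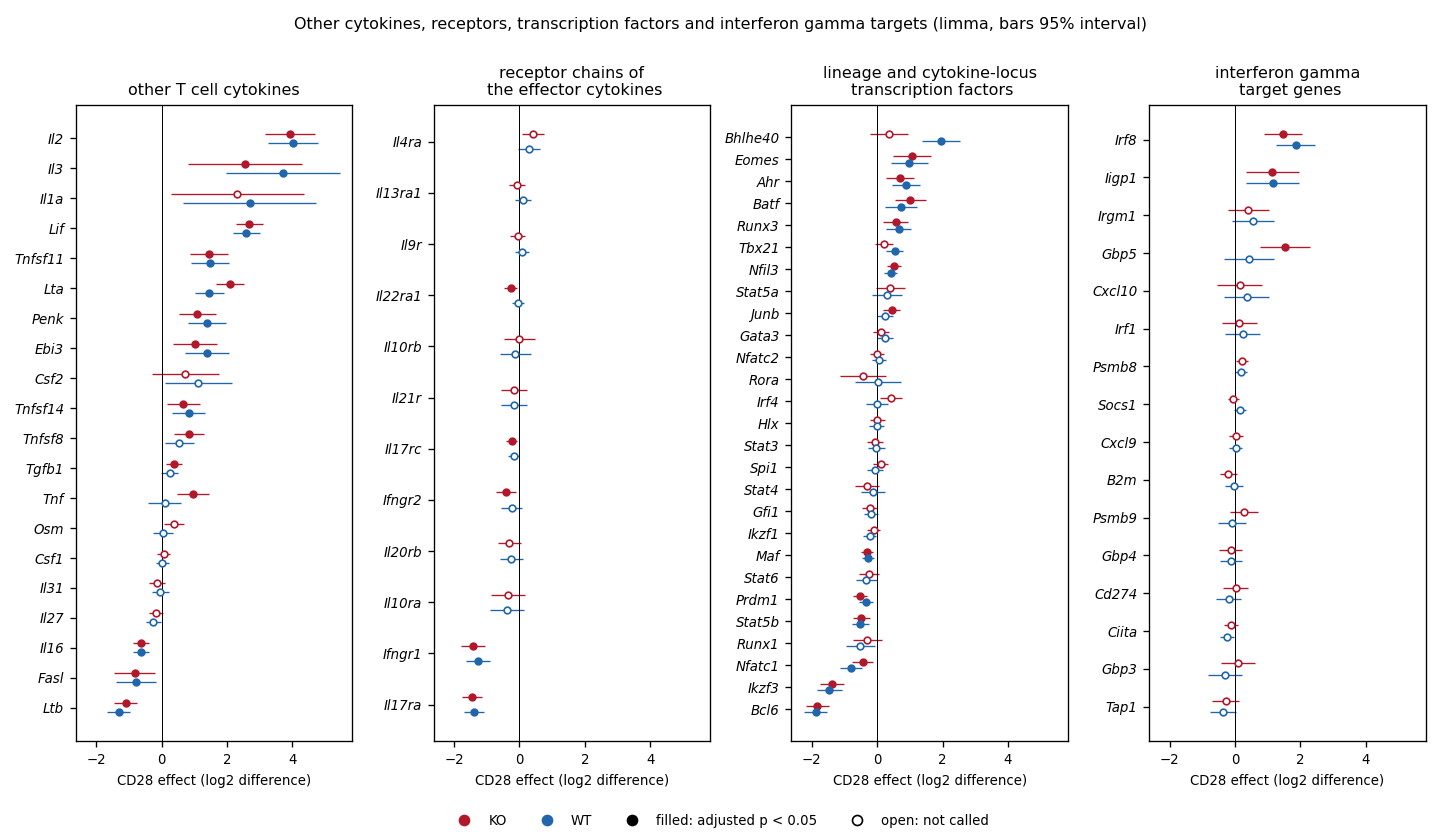
CD28 effects as log2 differences (x axis) with 95% intervals for the other cytokines, receptor chains, transcription factors and interferon gamma targets that were tested (y axis), in KO (red) and WT (blue). Filled points passed at an adjusted p of 0.05 and open points did not. Il2 reaches 3.93 in KO and 4.02 in WT, while Bcl6, Ifngr1 and Il17ra lie below 0 in both.

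Markers of other cells that make these cytokines were measured on the same arrays. Of 14 NK and CD8 T cell markers, 7 were at or below background on all arrays, among them Klrb1c, Ncr1 and Gzma. The mean log2 level of the 14 ranged from 6.16 to 6.39 in KO_CD3CD28, 6.14 to 6.32 in KO_CD3, 6.21 to 6.29 in WT_CD3CD28 and 6.05 to 6.27 in WT_CD3. Of 8 tested, 5 were higher and 2 lower under both antibodies in each genotype. Cd8a, a CD8 coreceptor chain, was at 7.53 ± 0.08 in KO_CD3CD28 and 7.13 ± 0.18 in KO_CD3, and at 7.58 ± 0.07 in WT_CD3CD28 and 6.85 ± 0.08 in WT_CD3. In wild-type cells the other chain, Cd8b1, was brighter than Cd8a, at 9.53 in WT_CD3CD28 and 8.80 in WT_CD3. That was a difference of 0.73 (limma adjusted p = 0.00345). Both chains were above background on all 16 arrays. The granule protease Gzmb rose by 3.10 in knockout and 2.30 in wild-type cells. Its probe was above background on 1 of 4 KO_CD3 arrays and 3 of 4 WT_CD3 arrays. The NK receptor chain Klrd1 fell by 3.71 in knockout cells, with 2 of 4 KO_CD3CD28 arrays above background. Klrd1 was at least 8.09-fold lower in WT_CD3CD28 (limma adjusted p = 4.69e-08), where it was below background on all 4 arrays. The mast cell and basophil genes Fcer1a, Ms4a2, Cpa3, Mcpt8 and Mcpt4 were at or below background on all 16 arrays. Of 12 myeloid markers tested, 6 fell in knockout and 5 in wild-type cells, and of 7 B cell markers, 5 and 4. With arrays centred on their median, on the sensory receptor median or quantile normalized once more, 3 of the 12 myeloid and 1 of the 7 B cell markers fell in knockout cells, and 3 or 4 and 4 in wild-type cells. The B cell antigen receptor chain Cd79a, counted in knockout cells, was below background in both groups there. With CD28, 5 of 7 memory and regulatory T cell markers rose in knockout and 4 in wild-type cells, Cd44 by 1.55 and 1.39. Without the block, 0 of the markers in these lists passed between genotypes. Under anti-CD3 the block called 11.9% of all genes. Among the NK and CD8 T cell markers it called Klrd1 (0.92) and Cd8a (0.27), higher in KO_CD3, and Gzmb (-0.94) and Eomes (-0.74), lower there. Further calls were Cd14 (0.47, below background on all arrays), Cst3 (-0.53), Il2rb (-0.73), S100a4 (0.38) and the identity gene Zap70 (-0.57). The part of cells with such markers in the Ifng values was not tested.

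Genes whose probes followed the cytokines over the 16 arrays are given as a description, since the arrays share stimulus, genotype and array level. Nearest to Ifng were Mpp2 (Pearson r 0.92), Thrap3 (0.91) and Ell2 (0.89). Il13 lay nearest to Mymk (0.91), Nav2 (0.90) and Gm9866 (0.90), and Il17f to Ezhip (0.81), Aph1c (0.76) and Ldhal6b (0.70). Between the tested cytokines themselves, r ranged from -0.65 for Ifng and Il24 to 0.57 for Il13 and Il24. Il17a and Il17f, neighbours in the genome, had 0.17, and Il4 and Il13 had 0.47.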

How the data were processed

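Log2 signals of Affymetrix mouse arrays were deposited by the authors, made with RMA per the submitters' processing notes; RMA corrects background, normalizes quantiles and summarizes probe sets. The sources used here do not name the array's genome build. The file held 35556 probes on 16 arrays. The supplied probe table gave 21789 probes a single symbol and 1621 several. A probe was kept where 4 or more arrays had it above their 25th percentile, and the one with the highest mean stood for a gene, leaving 16427 genes. The number of arrays limits the precision.

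Group means over 16 arrays were fitted with limma 3.58.1 in R 4.3.3, with Benjamini-Hochberg adjustment over all genes and a threshold of 0.05, after tests on simulated data. The 5 comparisons were CD28 in each genotype, genotype under each stimulus, and their interaction. Summaries used Python 3.11.15. Named genes were drawn from the 9 cytokines, the 3 largest called changes per list, direction and comparison, Bhlhe40, Il2, further receptors and factors where a result turns on them, and the 3 genes most like each cytokine above background in a group. Not every gene so selected is named, and Il1a, Fasl, Ahr and Ccr8 are among those left out. Cd4, Cd8a, markers at or below background and genotype calls with the block were named outside this rule. Cytokines and lists were chosen with earlier results of these data known.

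Same-numbered replicates deviated together from their group means (correlations 0.22 to 0.51 for CD28 in knockout, 0.16 to 0.37 in wild type, 0.18 to 0.45 for genotype with anti-CD3, 0.20 to 0.59 for genotype with both antibodies), so a fit with the number as a block was added. Other alternatives changed scaling, filter, probe choice, variance model, array weights and samples. Centring on sensory receptor probes, and the block without the filter, were added after seeing the data.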

Additional observations from a re-analysis of the deposited data

Results flagged for a closer look

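In 3 of the 36 groups of 4 arrays that were checked (9 cytokines in 4 groups), a single array stood far from the other 3; chance gives about 1 in 20. Il13 in KO_CD3 replicate 3 was at 7.47, below the 7.64 to 7.67 of the other KO_CD3 arrays. Il17f in WT_CD3 replicate 1 was at 6.30, below the 6.44 and 6.45 of the other WT_CD3 arrays. Il21 in KO_CD3 replicate 4 was at 4.17, below the 4.41 to 4.44 of the other KO_CD3 arrays, and this probe was below background on all 16 arrays.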

How the results depend on the processing

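Of the effector cytokines, 1 was called for CD28 in knockout cells. That count was 2 without the filter, with array weights, with only the groups compared, with the replicate block, with the replicate set as a term and with the Xist level as a term. It was 3 with the replicate block and no filter, 0 with arrays centred on sensory receptor probes, and 1 to 2 leaving out each array. For CD28 in wild-type cells the count of 1 became 2 with median centring and repeated quantile normalization. These added Il17a as higher (0.24 and 0.23, limma adjusted p = 0.0262 and 0.0266). Array weights and replicates 1 and 2 alone also gave 2, adding Il24 as lower (-0.40 and -0.45, limma adjusted p = 0.0438 and 0.0165). The block without the filter gave 2 as well, adding Il21. Leaving out each array gave a count of 0 to 1. The genotype comparisons and the interaction stayed at 0 in each alternative run, the replicate block included, which gave Il17a under anti-CD3 an adjusted p of 0.0526. Among 3 cytokines above background on all 4 arrays of a group, 1 remained with the 99th percentile, and 7 cytokines passed with the array's 25th percentile. Without a change in the count, Ifng replaced Il13 as the cytokine called in knockout cells under median centring (Ifng 0.63, limma adjusted p = 0.0477), repeated quantile normalization (0.63, 0.0309) and replicates 3 and 4 alone (0.43, 0.0328). The block changed the call of Ifng in knockout cells and, without the filter, of Il21 in wild-type cells, and of no other effector cytokine. Scaling moved the all-gene median for CD28 in knockout cells by over 0.1, to 0.07 with median and 0.06 with sensory centring, and with sensory centring 74.4% of called genes were higher. For genotype under anti-CD3 it became -0.12 with sensory centring, and 27.2% higher among called genes became 4.98% with median and 1.31% with sensory centring. The fit on only the groups compared was not run for the interaction. Depth has no counterpart here; signal near background limits Il4, Il9, Il17a, Il17f, Il24, Il10 and Il21.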
